A study of Mus musculus with 48 samples.

Results

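The machinery for active calcium uptake was followed in the developing mouse intestine through 5 genes, Trpv6, S100g, Atp2b1, Vdr and Cyp24a1, in duodenum and ileum from birth to week 4. The genes were taken by their listed symbols, 5 of 54532 in the deposited table of estimated counts, and 4 of them passed the low-count filter that 21986 genes passed. Cyp24a1 was the member that did not pass.

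The tissue came from C57Bl/6J mice of both sexes, killed at day 0, 2, 4, 6 or 8 or at week 2, 3 or 4. Each sample was a 2 cm length of whole-thickness intestine, taken either just past the pylorus (duodenum) or just ahead of the junction with the caecum (ileum). No group carried an altered allele or received an agent, and all pups stayed with their dam until day 21 and ate chow after that. The labels give the housing as germ-free, a point that the counts cannot settle. They number 3 samples in each of the 16 groups of region and age, and do not say whether these are separate animals or whether equal numbers in the 2 regions share a mouse, so the p-values below measure the spread between these samples.

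Enterocytes move calcium in 3 steps. It enters across the brush border through the channel Trpv6, crosses the cell bound to the small buffer protein S100g, also called calbindin, and leaves at the basal side through the pump Atp2b1. The hormone form of vitamin D acts through its nuclear receptor, Vdr, which in adult duodenum raises the transcription of Trpv6 and S100g, and Cyp24a1 is the enzyme that breaks the hormone down and is itself a well known target of the receptor.

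Libraries held between 16824021 and 65042327 estimated counts. Levels are given as CPM, the counts of a gene scaled to a common library size with TMM factors, and are compared within a gene only, because CPM does not correct for gene length. The samples numbered 3 at day 6 were left out in both regions: the library labelled duodenum held 0.115 CPM of Pdx1, a transcription factor of the duodenum and pancreas, and the library labelled ileum held 14.6 CPM. In the 46 samples used, Pdx1 had a median of 14.1 CPM in duodenum and 0.275 CPM in ileum. A pair of week 4 libraries stood apart from their labels in part and are followed below with and without. Duodenum number 2 had 1.81 CPM of Pdx1, where numbers 1 and 3 had 20.7 and 17.0 CPM, yet it had 150 CPM of Gata4, another duodenal factor. Ileum number 1 had 41.7 CPM of Fabp6, the ileal bile acid carrier, where numbers 2 and 3 had 1256 and 1937 CPM. It also had 85.9 CPM of Gata4, where these had 21.1 and 22.3 CPM. At day 0, ileum number 2 held 6.51 CPM of Pdx1, the highest among the ileum samples used.

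The summed level of 8 epithelial markers changed with age too. It lay between 5500 and 6801 CPM in the week 2 duodenum, between 7869 and 9745 CPM at week 3 and between 10171 and 13892 CPM at week 4. In ileum it lay between 5856 and 6591 CPM at week 2 and between 10976 and 14665 CPM at week 3. The part of this change in the results was not tested. In tissue RNA of this kind, a change in the number of cells of a type and a change in RNA per cell cannot be told apart. Although the samples are labelled whole thickness, 6 smooth muscle markers summed to only 4.68 to 44.5 CPM in duodenum and 12.9 to 194 CPM in ileum. Pancreatic acinar markers (10 genes) summed to at most 532 CPM in duodenum, in number 1 of day 2, and to at most 27.5 CPM in ileum. More Ddx3y than Xist was counted in 14 of the 48 samples, and none of these was from day 6, day 8 or week 4.

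Trpv6, the entry channel (ENSMUSG00000029868, chromosome 6, 41620624 to 41636405, minus strand, GRCm38), was low at birth in both regions, climbed in duodenum and stayed near its detection limit in ileum until week 4. In duodenum the mean was 0.594 ± 0.512 CPM (SD, n = 3) at day 0, 2.61 ± 0.644 CPM at day 8, 3.80 ± 1.10 CPM at week 2 and 15.99 ± 7.90 CPM at week 3. In ileum no sample from day 0 to week 3 exceeded 0.5846 CPM, and the week 4 mean was 5.40 ± 5.49 CPM.

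The 3 day 0 duodenum samples of Trpv6 held 0.277, 0.319 and 1.19 CPM, and the day 8 samples held 2.53, 3.29 and 2.01 CPM. The groups did not overlap, and the log2 change of 2.04 ± 0.79 (SE) passed the edgeR quasi-likelihood test (adjusted p = 0.0375). This call was not firm: it was lost without any one of day 0 numbers 1 and 2 and day 8 numbers 1 and 2 (adjusted p between 0.0600 and 0.143), and with no low-count filter, with day 6 number 3 kept, without day 4 or with a sex index in the model (adjusted p between 0.0541 and 0.0989). Without day 0 number 3, the highest of its group, the change was 3.11. Between these ages Trpv6 had group means of 1.60 CPM at day 2, 2.91 CPM at day 4 and 3.73 CPM at day 6 (n = 2).

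At the step from week 2 to week 3, which ends at the labelled age of weaning, duodenal Trpv6 went from 4.36, 2.54 and 4.51 CPM to 18.2, 22.5 and 7.22 CPM. Each week 3 sample was above each week 2 sample, a ratio of means of 4.21 and a log2 change of 2.07 ± 0.74 (edgeR adjusted p = 0.0473). Among the 6 samples compared, leaving out week 3 number 3 kept the call, and leaving out any other one lost it (adjusted p between 0.0950 and 0.171, log2 change between 1.73 and 2.21). It was also lost with no low-count filter, with day 6 number 3 kept and in DESeq2 (adjusted p = 0.106, 0.145 and 0.0550). At week 4 the duodenum samples held 17.1, 0.389 and 11.2 CPM. The lowest of these is number 2, whose Pdx1 was also low. Without it the week 4 mean was 14.2 ± 4.21 CPM (n = 2), against 9.57 ± 8.49 CPM with it, and neither value was called different from week 3.

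In ileum Trpv6 rested on few reads before week 4, with group totals of 6 to 27 counts from day 0 to week 3 and group means of 0.119 to 0.316 CPM. The week 3 samples held 0.320, 0.338 and 0.289 CPM, and the week 4 samples held 3.61, 1.02 and 11.6 CPM. The groups did not overlap, and the rise of 4.05 ± 0.92 on the log2 scale was called (edgeR adjusted p = 0.00168). It stayed called without each of the 6 samples in turn, and was smallest without week 4 number 3, at 2.78 (adjusted p = 0.0409). With both discordant week 4 libraries left out it was 4.27 (adjusted p = 9.94e-05). Markers of other tissue and cells moved in the same step. The summed level of the 4 caecum and colon markers found was 43.2, 33.9 and 21.9 CPM in week 3 ileum samples 1 to 3. At week 4 it was 125, 222 and 71.8 CPM. Over the samples used this sum had a median of 110 CPM in duodenum and 40.1 CPM in ileum. Its highest value was 153 CPM in duodenum and 222 CPM in ileum, the latter in week 4 number 2. Whether caecal or colonic tissue was present in these samples was not tested. The 6 leukocyte markers summed to 10.8, 19.5 and 21.2 CPM in the week 3 ileum samples. In the week 4 ileum samples they summed to 160.2, 190.1 and 356 CPM. The part of these lists in the rise was not tested.

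**Figure D1:**
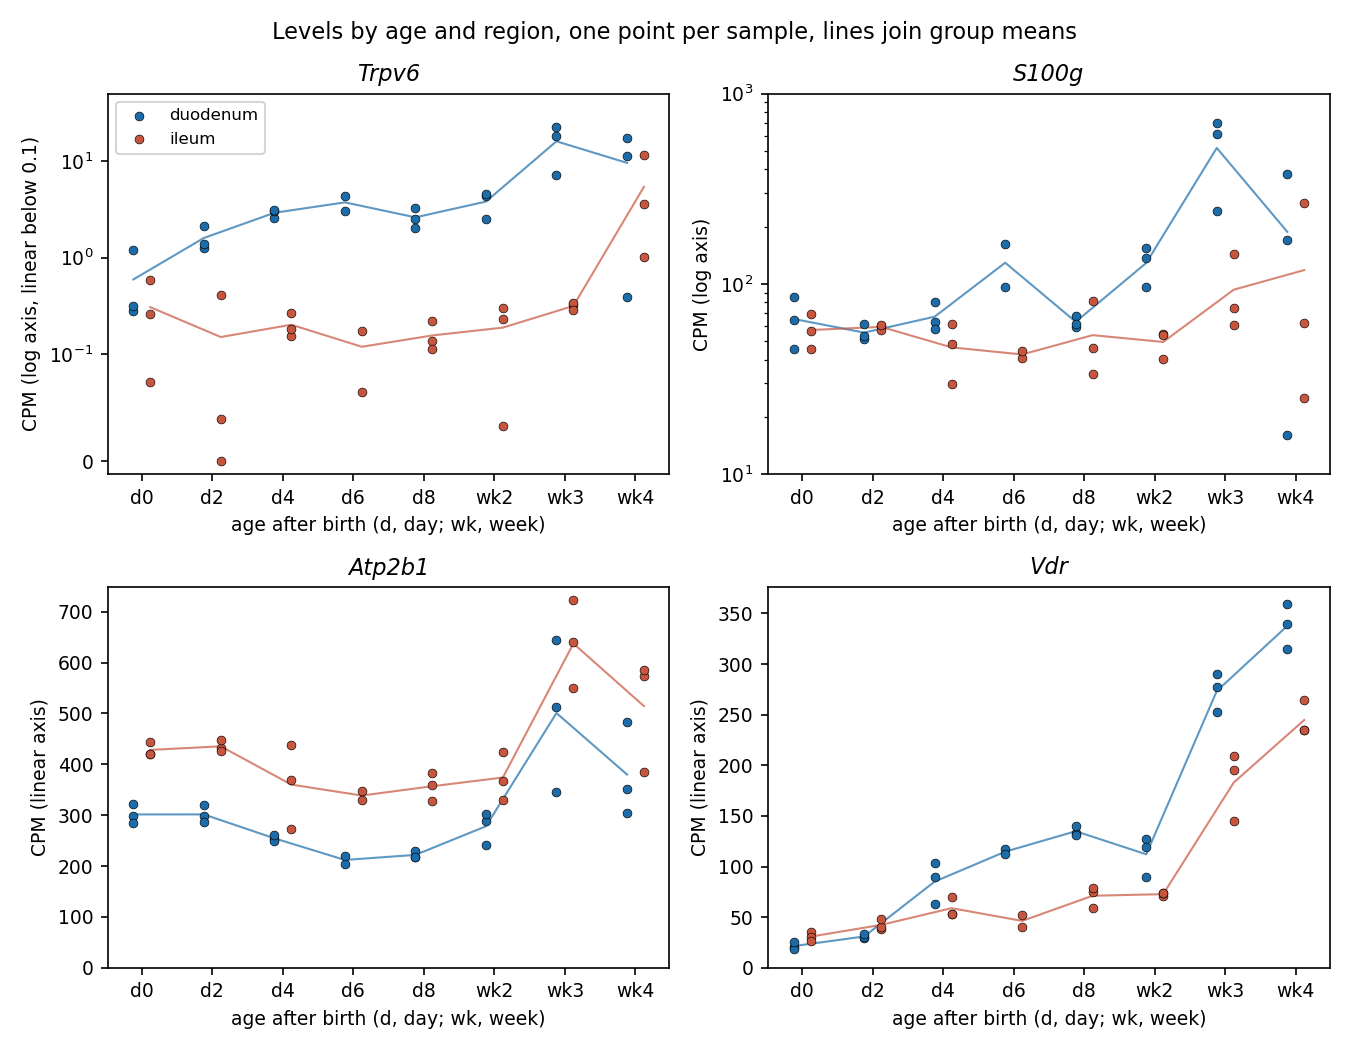
Level of Trpv6, S100g, Atp2b1 and Vdr in CPM by age, with a point for each of the 46 samples used and lines through group means, duodenum in blue and ileum in red. The Trpv6 axis is logarithmic and linear below 0.1 CPM, the S100g axis is logarithmic, and the lower axes are linear and start at 0. Trpv6 separates the regions from day 2 to week 3, and Vdr climbs in both regions.

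S100g, the cytosolic calcium carrier (ENSMUSG00000040808, chromosome X, 162961992 to 162964599, minus strand), had similar levels in the 2 regions for the first days and a peak in the week 3 duodenum. Day 0 samples held 45.7, 65.0 and 85.8 CPM in duodenum and 69.8, 56.7 and 45.3 CPM in ileum, so the groups overlapped. At week 3 the duodenum samples held 616, 697 and 240.2 CPM, and the ileum samples held 60.6, 144 and 74.8 CPM. The groups were apart, with the ileum lower by a log2 difference of -2.47 ± 0.66 (edgeR adjusted p = 0.0120).

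The week 2 duodenum samples of S100g held 136, 95.8 and 155 CPM, so every week 3 sample lay above them. The ratio of means was 4.02, and the log2 change of 2.01 ± 0.65 was called (edgeR adjusted p = 0.0282). As for Trpv6, the call stayed without week 3 number 3 and was lost without any one of the other 5 samples (adjusted p between 0.0585 and 0.111), and with no low-count filter (adjusted p = 0.0526). At week 4 the duodenum values spread from 16.1 CPM in number 2 through 170 to 377 CPM, with a mean of 188 ± 181 CPM, or 274 ± 146 CPM (n = 2) without number 2. The change from week 3 was not called (log2 change -1.46, adjusted p = 0.133), but it was called without week 4 number 1 (-2.47, adjusted p = 0.0209).

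The ileum gave no called effect of age for S100g (edgeR adjusted p = 0.315), with group means between 42.6 and 118 CPM. Without the discordant week 4 libraries that p was 0.0462. The ileum week 4 samples held 62.3, 25.04 and 267 CPM. S100g lies within Ctps2, a gene on the opposite strand that held between 5.26 and 27.2 CPM in the samples used. Whether the authors' counting used strand is not given in the sources used here, so the lowest S100g values can hold Ctps2 reads.

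Trpv6 and S100g had the same order over samples in 8 of the 16 groups: the duodenum at days 0, 2 and 6 and at weeks 2, 3 and 4, and the ileum at day 4 and week 4. It differed in the other 8, among them the ileum at weeks 2 and 3. In the duodenum at week 4 the order was number 1, then 3, then 2 for both, and in the ileum it was number 3, then 1, then 2. In the week 4 ileum, number 1 was the sample with low Fabp6 and was not the highest for either gene. A shared order was not particular to Trpv6 and S100g. S100g and Atp2b1 had it in the duodenum at days 4, 6 and 8 and at weeks 2 and 4. They also had it in the ileum at days 0, 2 and 6. Over the 16 group means of log2 CPM the Pearson correlation was 0.759 between Trpv6 and S100g, 0.649 between Trpv6 and Vdr and 0.618 between S100g and Vdr. That between Atp2b1 and each of the other genes lay between -0.243 and 0.238. These are descriptions over groups that share libraries, with no test.

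**Figure D2:**
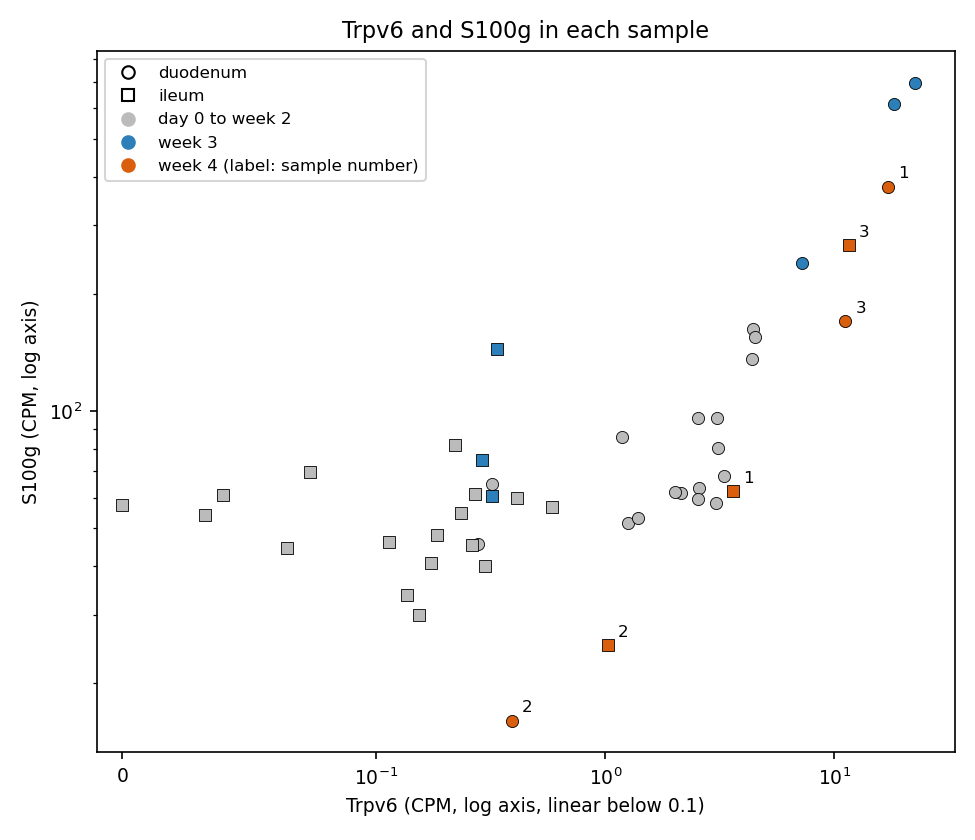
S100g against Trpv6 in CPM in each of the 46 samples used, both axes logarithmic with the Trpv6 axis linear below 0.1 CPM, circles for duodenum and squares for ileum. Week 4 samples carry their number: duodenum number 2 lies at 0.389 CPM of Trpv6 and 16.1 CPM of S100g, and ileum number 3 lies among the week 3 and week 4 duodenum samples.

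The 250 bases ahead of the annotated starts of Trpv6 and S100g are shown, from RefSeq on GRCm38.p6. Entries were found for 4 of the 5 members. The windows are chr6:41636406-41636655 for Trpv6 and chrX:162964600-162964849 for S100g, both from the minus strand and written 5′ to 3′ toward the start. Capitals mark AGGTCA, the hexamer read by many nuclear receptors, or its reverse complement.
Trpv6: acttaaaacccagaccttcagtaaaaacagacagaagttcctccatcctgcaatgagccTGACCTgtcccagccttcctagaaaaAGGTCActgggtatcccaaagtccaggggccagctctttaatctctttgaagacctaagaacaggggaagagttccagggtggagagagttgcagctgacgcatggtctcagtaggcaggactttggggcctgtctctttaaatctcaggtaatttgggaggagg
S100g: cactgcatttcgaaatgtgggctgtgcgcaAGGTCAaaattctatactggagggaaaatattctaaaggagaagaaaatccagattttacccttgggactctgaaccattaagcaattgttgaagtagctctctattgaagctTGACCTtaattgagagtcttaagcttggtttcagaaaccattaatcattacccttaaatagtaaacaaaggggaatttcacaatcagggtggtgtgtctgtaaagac
Each window held the hexamer at 2 places, 191 and 165 bases ahead of the start in Trpv6 and 220 and 107 bases ahead in S100g. On either strand, 14% of 32851 promoter windows held it at least once and 1.36% at 2 or more places. Also searched on both strands were the direct repeat of AGGTCA with 3 bases between the copies, TTTAT (a core read by CDX factors) and TATAAA (the TATA box). Neither window held a match, and the shares of all windows were 0.00609%, 37.3% and 12.4%. The windows of Atp2b1, at 2 starts, and of Vdr held none of the 4 motifs. A match is a stretch of letters, not a site shown to be bound.

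Atp2b1, the pump at the basal membrane (ENSMUSG00000019943, chromosome 10, 98914406 to 99026143, plus strand), varied least of the 4 genes tested and was the one with the higher level in ileum. Group means ran from 212 to 501 CPM in duodenum and from 339 to 637 CPM in ileum, and the ileum mean was above the duodenum mean at all 8 ages. Averaged over ages the ileum was higher by 0.51 ± 0.07 on the log2 scale (edgeR adjusted p = 1.61e-08). In single ages this was called at days 4, 6 and 8 (log2 differences 0.50, 0.68 and 0.69).

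Atp2b1 rose from week 2 to week 3 in both regions, to a ratio of means of 1.80 in duodenum and 1.70 in ileum. The duodenum went from 289, 242 and 303 CPM to 644, 512 and 346 CPM, and the ileum went from 331, 368 and 423 CPM to 723, 640.4 and 549 CPM. The week 3 samples lay above the week 2 samples in each region. The log2 changes of 0.85 ± 0.18 and 0.77 ± 0.18 were called (edgeR adjusted p = 0.000528 and 0.00104) and stayed called without each of the samples compared. Before that, the duodenum fell by 0.44 ± 0.18 from day 0 to day 8 (adjusted p = 0.0459), from 323, 298 and 284 CPM to 218, 229 and 219 CPM. That call was lost without any one of 5 of the 6 samples (adjusted p between 0.0768 and 0.132) and stayed only without day 0 number 3, and it was lost with no low-count filter, with day 6 number 3 kept and with a sex index (adjusted p between 0.0602 and 0.0951). Of the regional calls, that of day 6 was lost without any one of the 4 samples (adjusted p between 0.0527 and 0.103), and at day 4 without any one of 5, ileum number 2 being the exception (adjusted p between 0.0585 and 0.245). The day 8 call held without each sample. At week 4 the difference of 0.44 was not called (adjusted p = 0.0628), but it was without duodenum number 1 or ileum number 1 (adjusted p = 0.0222 and 0.0154).

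Vdr, the receptor (ENSMUSG00000022479, chromosome 15, 97854425 to 97910630, minus strand), rose in both regions, by a ratio of means of 15.7 in duodenum and 7.94 in ileum between day 0 and week 4. In duodenum the mean went from 21.5 ± 3.45 CPM at day 0 to 135 ± 4.45 CPM at day 8, 112 ± 19.6 CPM at week 2, 273.5 ± 19.3 CPM at week 3 and 338 ± 22.1 CPM at week 4. In ileum the means at these ages were 30.8 ± 4.44, 71.2 ± 10.5, 72.8 ± 1.91, 183 ± 33.9 and 245 ± 16.7 CPM. Both courses had 2 called steps, between day 0 and day 8 and between week 2 and week 3. The change between day 8 and week 2 was not called in either region. From week 3 to week 4 the mean rose further and the samples did not overlap in either region. These rises of 0.30 in duodenum and 0.42 in ileum on the log2 scale were not called (edgeR adjusted p = 0.229 and 0.0771).

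The first step of Vdr was from 20.4, 18.7 and 25.3 CPM to 134, 131 and 140 CPM in duodenum, and from 35.5, 30.3 and 26.7 CPM to 59.3, 75.1 and 79.2 CPM in ileum. Neither region's groups overlapped, and the log2 changes were 2.65 ± 0.17 and 1.21 ± 0.17 (edgeR adjusted p = 6.00e-14 and 1.39e-06). The step from week 2 to week 3 was of like size in the 2 regions, 1.29 ± 0.17 in duodenum and 1.33 ± 0.17 in ileum (adjusted p = 1.43e-07 and 4.67e-08). The difference between these last changes was 0.04, with a 95% interval from -0.42 to 0.51. The 4 step calls held under each alternative run and without each sample compared.

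The regional order of the Vdr means turned over with age. At day 0 and day 2 the ileum mean was the higher one and the samples did not overlap, but the differences of 0.52 and 0.45 on the log2 scale were not called (edgeR adjusted p = 0.0547 and 0.0909). Both were called in DESeq2 (adjusted p = 0.0242 and 0.0450) and without the day 4 samples (0.0109 and 0.0149), and that of day 0 also without number 3 of either region (0.0307 and 0.0484) and with the sample number as a block (0.0484). Of the 8 alternative runs, 4 gave no call at day 0 and 5 gave none at day 2 (highest adjusted p = 0.310 and 0.372). From day 4 the ileum was lower at each age, with called log2 differences between -0.46 and -1.31. At day 6 the duodenum samples held 117 and 112 CPM and the ileum samples held 52.1 and 40.6 CPM, the widest gap. The calls at days 6 and 8 and week 2 held without each sample. The day 4 call was lost without duodenum number 2 or ileum number 1 or 3 (adjusted p between 0.0748 and 0.135). At week 3 it was lost without duodenum number 2 or ileum number 1 (adjusted p = 0.0546 and 0.0939), and at week 4 without duodenum number 3 or ileum number 2 or 3 (adjusted p between 0.0654 and 0.0738). Of the alternative runs, 5 of 7 kept the call at day 4, 7 of 8 at day 6 and 8 of 8 at day 8. At week 2 it was kept in 7 of 8, at week 3 in 6 of 8 and at week 4 in 6 of 9.

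Cyp24a1, the enzyme that ends the hormone's action (ENSMUSG00000038567, chromosome 2, 170482708 to 170497145, minus strand), was at or near the limit of detection throughout. It had 34 estimated counts in all over 46 samples. There were none in 26 samples, and only 2 samples held more than 3 counts. The highest level was 0.193 CPM, in a week 3 ileum sample. The duodenum at day 8 and the ileum at days 6 and 8 held no count, and 3 counts over a group would have been 0.0219, 0.0556 and 0.0361 CPM. No fold is given between groups at this depth. With the low-count filter lifted, edgeR called the gene in 0 of the 21 comparisons (lowest adjusted p = 0.238), and 0 had an unadjusted p under 0.05. It overlaps the end of Pfdn4 on the opposite strand, a gene with between 5.79 and 26.4 CPM.

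The share of all genes called is given beside each count of members. For the effect of age, 4 of the 4 members tested were called in duodenum, where 67.4% of all genes were, and 3 of 4 in ileum, where 58.7% were. For day 8 against day 0, Trpv6 and Vdr were higher and Atp2b1 lower in duodenum (41.2% of all genes called), and Vdr alone was called in ileum (19.3%). No member was called for week 2 against day 8 (15.7% and 6.64%), and at an unadjusted p under 0.05 there was none either. When the model held just the groups compared, however, S100g and Atp2b1 were called higher in duodenum (adjusted p = 0.00192 and 0.0152).

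For week 3 against week 2, all 4 were higher in duodenum, where 18.3% of genes were called and 7.70% were called higher, with a median log2 change of 1.65 over the members and 0.03 over all genes. In ileum Atp2b1 and Vdr were called higher, where 26.8% were called and 12.9% were called higher. The calls of Trpv6 and S100g in ileum were missing, but the difference between the regions in this step was not called for any member by edgeR or DESeq2 (1.38% of genes called in edgeR), and no member had an unadjusted p under 0.05 for it. For Trpv6 that difference was -1.39, with an interval from -4.05 to 1.28. For week 4 against week 3 no member was called in duodenum (12.7%), although S100g and Atp2b1 had an unadjusted p of 0.0292 and 0.0326, and Trpv6 alone was called in ileum (16.1%). There Vdr missed the threshold (adjusted p = 0.0771) and passed it in DESeq2 (0.0435). Duodenal Atp2b1 was called lower without week 3 number 3 or week 4 number 1 (adjusted p = 0.0274 and 0.0333).

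**Figure D3:**
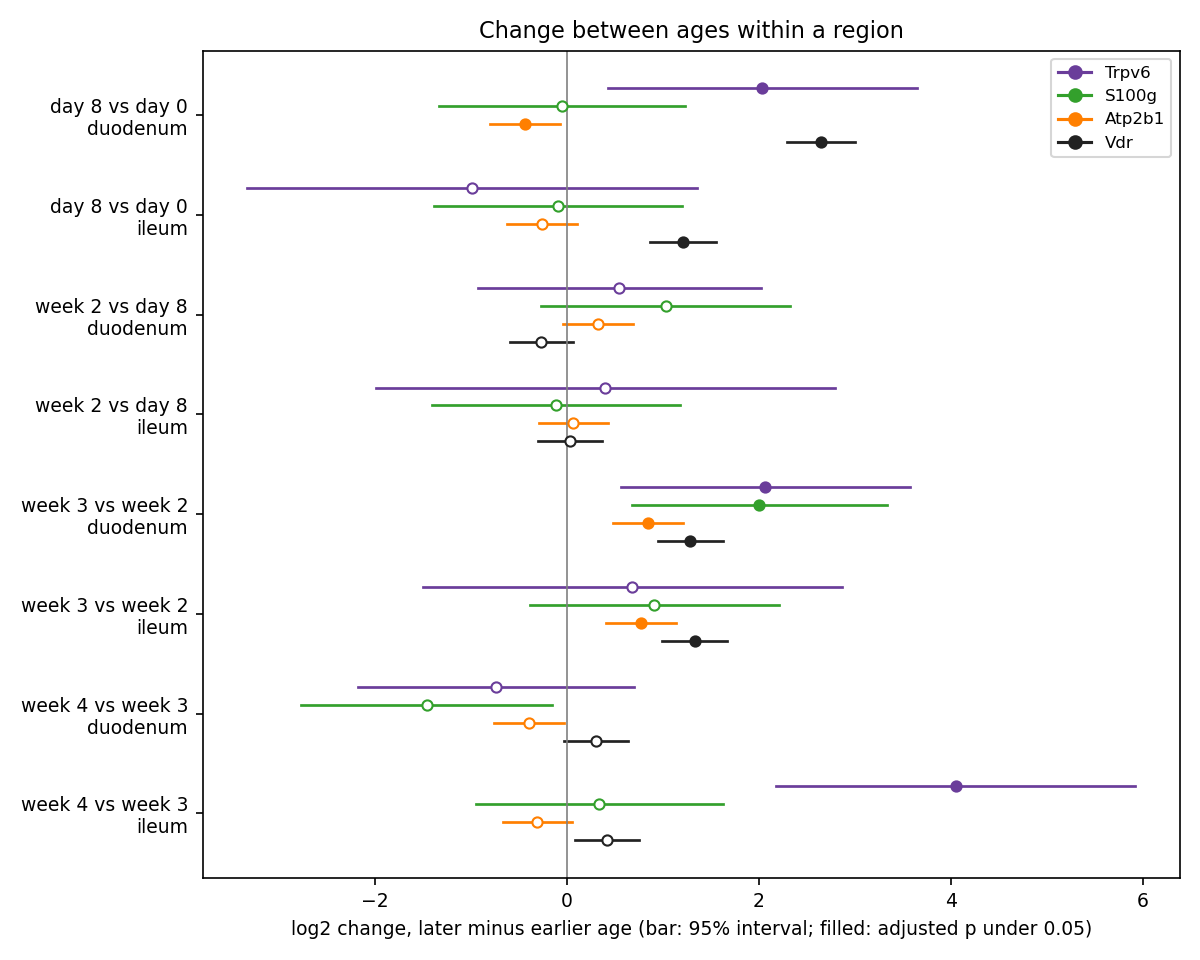
Log2 change of each of the 4 members tested within a region, with the 95% interval as a bar and filled points for an adjusted p under 0.05. The steps are day 8 against day 0, week 2 against day 8, week 3 against week 2 and week 4 against week 3. In the step from week 2 to week 3 all 4 duodenum points are filled, and in the step from week 3 to week 4 only Trpv6 in ileum is, at 4.05.

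Region separated the members in different directions. Averaged over ages, Trpv6 was lower in ileum by a log2 difference of -3.50 ± 0.34, S100g by -0.87 ± 0.23 and Vdr by -0.43 ± 0.06, while Atp2b1 was higher, all 4 called (edgeR adjusted p at most 0.00160). Of all genes, 62.1% were called in that comparison. At day 0, edgeR called 0 of the 4 (6.10% of genes), though 2, Atp2b1 and Vdr, had an unadjusted p under 0.05 and were called in DESeq2. At day 2, 1 was called (8.01%). Then 3 were called at each of days 4, 6 and 8 (26.6%, 35.3% and 39.6%), 2 at week 2 (22.4%), 3 at week 3 (14.2%) and 1 at week 4 (28.4%). Trpv6 was called lower in ileum at each age from day 2 to week 3, with log2 differences between -3.21 and -5.65. At day 2 this was lost without duodenum number 1 or 3 or ileum number 2 or 3 (adjusted p between 0.0549 and 0.167), and without ileum number 1 the difference was -6.02. At day 6 it was lost without ileum number 2 (adjusted p = 0.0550), and without ileum number 1 it was -5.77. Had the day 6 samples numbered 3 been kept under their labels, it would have been -0.92 (adjusted p = 0.784). S100g was called lower at week 3 alone, a call lost without ileum number 3 (adjusted p = 0.0642), and at week 4 it was called lower without ileum number 3 (adjusted p = 0.0264). When the model held just the groups compared, S100g was also called lower at day 6 (-1.59, adjusted p = 0.00132) and week 2 (-1.37, adjusted p = 0.000567). At week 4 the regions of Trpv6 overlapped, with a log2 difference of -0.85 and an interval from -2.33 to 0.63 (adjusted p = 0.389).

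The effect of region changed with age for 2 of the 4 members, Trpv6 (edgeR adjusted p = 0.0257) and Vdr (5.60e-06), and this interaction was called for 22.4% of all genes. For S100g and Atp2b1 the adjusted p was 0.237 and 0.927. The Trpv6 call was lost without ileum day 0 number 2, the sample with 6.51 CPM of Pdx1 (adjusted p = 0.0505), and without ileum week 4 number 3, its highest ileum sample (adjusted p = 0.0782).

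**Figure D4:**
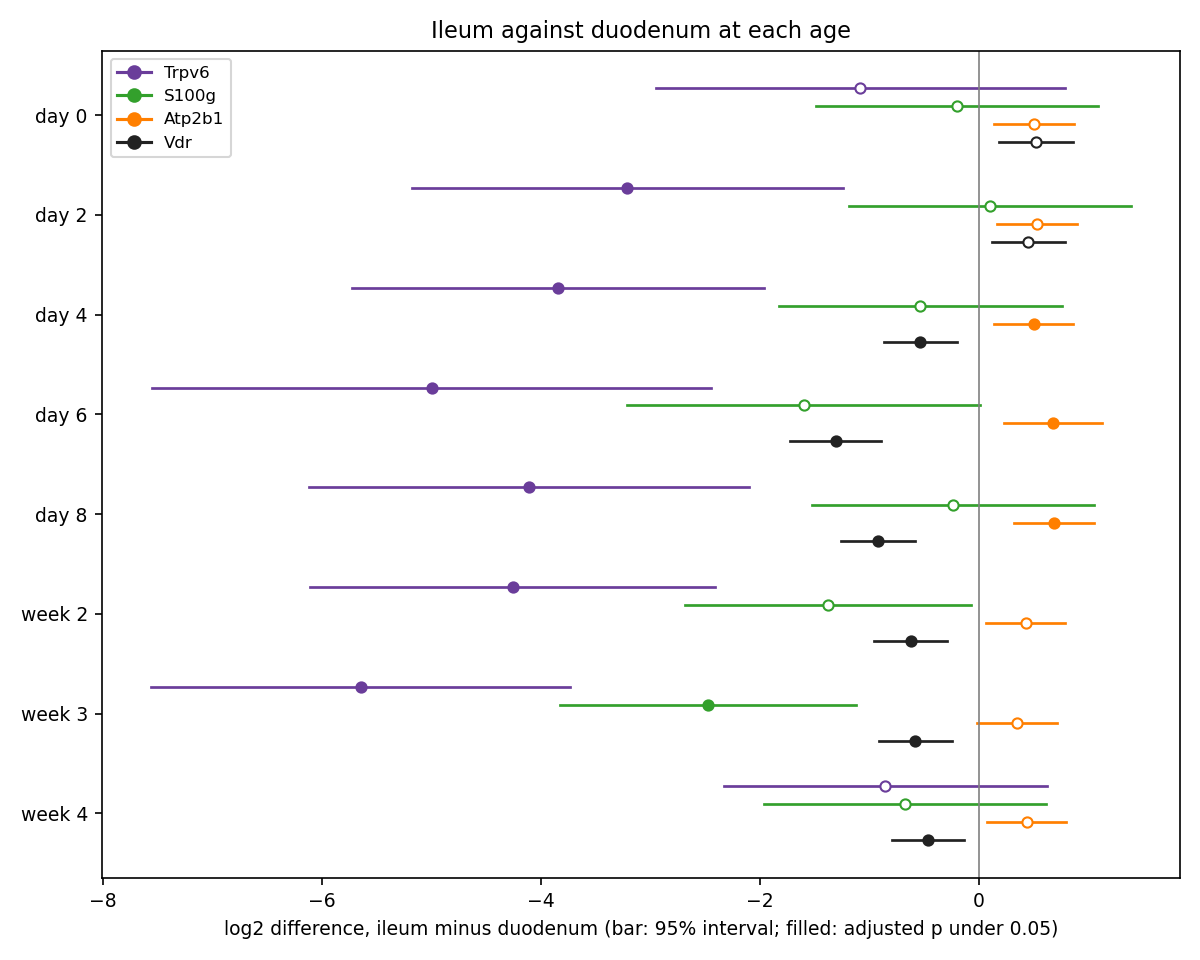
Log2 difference of ileum minus duodenum for each of the 4 members tested at each age, with the 95% interval as a bar and filled points for an adjusted p under 0.05. Trpv6 points are filled from day 2 to week 3, Vdr points turn from above 0 at days 0 and 2 to below 0 from day 4, and Atp2b1 points lie above 0 at all ages.

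Ranked by group mean, Trpv6 was highest in the duodenum at week 3, then at week 4, then in the ileum at week 4, and lowest in the ileum at day 6. Of its 15 pairs of neighbours in that order, 14 overlapped in their samples, the break falling between the duodenum at day 2 and at day 0. All 15 overlapped for S100g and 13 for Atp2b1. Vdr had the fewest overlaps of the 4, with 8 of 15, from the duodenum at week 4 down to the duodenum at day 0. The groups were put in order by the same means, and no such count was made for other genes.

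Other genes of calcium and vitamin D handling were read from a list of 35, of which 32 were tested. From week 2 to week 3, 13 of the 32 were called in duodenum (10 higher, 3 lower) and 16 in ileum (12 higher, 4 lower), where 18.3% and 26.8% of all genes were called. The median log2 changes were 0.41 and 0.46, against 0.03 over all genes in each region. In the list for calcium entry, buffering and exit, 4 of 11 were called in duodenum (18.3% of all genes), all higher, and 6 in ileum (26.8%), 5 of them higher. S100a10, a partner that carries Trpv channels to the membrane, rose from 113 to 254 CPM in duodenum and from 120 to 426 CPM in ileum (log2 changes 1.17 and 1.83). Its binding partner Anxa2 rose by 1.20 and 2.20. Trpm6, a channel for magnesium, rose from 0.481 to 40.0 CPM in ileum and from 1.02 to 3.16 CPM in duodenum. The difference between these steps was 4.73 on the log2 scale (edgeR adjusted p = 5.20e-05), the only call among the 32 for that difference. Calb1, the calbindin better known from kidney and brain, was called higher in both regions with means no higher than 0.721 CPM, and Trpv5, the renal relative of Trpv6, was the gene called lower in ileum. Neither has a fold given here, since their groups rest on few counts, and a split of reads between Trpv5 and Trpv6 was not checked.

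Of 3 claudins, junction proteins tied to the passage of calcium between cells, 2 were called from week 2 to week 3 in duodenum (18.3% of all genes) and 3 in ileum (26.8%), 1 of them higher in each region. Cldn15, which forms a pore for cations, rose from 92.0 to 227 CPM in duodenum and from 37.8 to 176 CPM in ileum (log2 changes 1.301 and 2.22). Cldn2, another pore former, fell by 1.10 and 0.77, and by a further 0.91 and 0.90 from week 3 to week 4. Cldn12 fell in ileum, from 47.97 to 36.4 CPM (log2 change -0.40, edgeR adjusted p = 0.0492), and had means of 47.96 and 43.0 CPM in duodenum, a difference not called. Averaged over ages, Cldn2, Cldn12 and Cldn15 were each lower in ileum than in duodenum (log2 differences -0.58, -0.26 and -1.04).

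Among 7 genes of vitamin D supply and metabolism, 4 were called from week 2 to week 3 in duodenum (18.3% of all genes) and 3 in ileum (26.8%). Cyp27a1, a mitochondrial sterol hydroxylase that can activate vitamin D, rose from 2.68 to 59.2 CPM in duodenum and from 5.58 to 76.5 CPM in ileum (edgeR adjusted p = 4.51e-10 and 4.02e-09). Dhcr7, which uses up the precursor of vitamin D to make cholesterol, rose by 0.84 and 0.62 on the log2 scale. Lrp2, an endocytic receptor that takes up protein-bound vitamin D in kidney, fell from 3.16 to 0.673 CPM and from 34.8 to 1.10 CPM. It had fallen in duodenum from 24.4 CPM at day 0 to 0.474 CPM at day 8. Cubn, its partner, was higher in ileum than in duodenum averaged over ages (log2 difference 1.504), and Lrp2 was too (3.21). Cyp27b1, which makes the active hormone, was called higher in duodenum at week 3 with a mean of 0.284 CPM, a level too low for a fold.

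Of 5 other intestinal genes listed for a link to the receptor, 3 were called in this step in each region, beside the same shares of all genes. Whether these genes answered to the receptor here was not tested. Cyp3a11, a drug and bile acid hydroxylase, rose from 37.7 to 2011 CPM in duodenum and from 6.48 to 161 CPM in ileum (log2 changes 5.74 ± 0.82 and 4.62 ± 0.78). It had also risen in duodenum from day 0 to day 8, by 4.85, and from day 8 to week 2, by 2.05. The efflux pump Abcb1a rose from 46.6 to 317 CPM and from 189 to 1006 CPM. Slc34a2, the phosphate transporter, fell in duodenum from 490.1 to 151 CPM and Slc30a10, a manganese and zinc exporter, rose in ileum from 159 to 275 CPM. Of the receptor partners and sensors, 0 of 6 were called in duodenum and Nr3c1, the glucocorticoid receptor, alone in ileum, higher by 0.53.

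From day 0 to day 8, 6 of 32 were higher and 10 lower in duodenum (41.2% of all genes called), and 1 higher and 7 lower in ileum (19.3%). From day 8 to week 2, 6 were higher and 1 lower in duodenum (15.7%) and 3 were higher in ileum (6.64%). From week 3 to week 4, 2 were higher and 4 lower in duodenum (12.7%), and 6 were lower in ileum (16.1%), among them Abcb1a, from 1006 to 408 CPM, and Cyp27a1, from 76.5 to 20.8 CPM. In the ileum, where Trpv6 rose between these ages, 0 genes of the list were called higher by edgeR, and 2, Atp2b2 and Cacna1d, had an unadjusted p under 0.05 in that direction.

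The genes whose group means followed each member most closely were found by Pearson correlation of mean log2 CPM over the 16 groups, among 12356 genes. For Trpv6 they were Reg1 (0.948), Zfp672 (0.919) and Tmprss2 (0.914). Reg1, a secreted lectin, had means of 303 CPM in the week 3 duodenum, 808 CPM in the week 4 duodenum and 49.4 CPM in the week 4 ileum. Its ileum mean was 15.4 ± 26.3 CPM (SD) at day 0 and at most 1.89 CPM from day 2 to week 3. S100g was followed by Ppme1 (0.850), Svip (0.826) and Zfp87 (0.824), the loosest match of the 4. For Atp2b1 the nearest were Ereg (0.936), Enpep (0.936) and Ptpre (0.929), and for Vdr they were Steap3 (0.965), Arl14 (0.962) and Hpse (0.961).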

How the data were processed

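The authors deposited estimated counts per gene for 48 samples, already whole numbers, in a table whose name cites tximport. Per the submitters' processing notes, STAR 2.6.1d, Salmon 0.14.2, DESeq2 1.30.1 and the build mm10 were used. Their roles, the annotation and the use of strand are not given in the sources used here. The authors also deposited a normalized signal for 40 of the samples: each column was the estimated counts divided by a constant (checked), and it supplied symbols and a check of the age effects.

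Counts of 46 samples (day 6 number 3 left out in both regions) entered a single edgeR 4.0.16 model (R 4.3.3): filterByExpr on the 16 groups, TMM scaling, a robust quasi-likelihood fit with a mean per group, 21 contrasts, and Benjamini-Hochberg adjustment over 21986 genes. A gene is called where that adjusted p is below 0.05. SE is the log2 change over the square root of F. The procedure was tested on simulated data. Alternatives were relative log expression (RLE) scaling, no filter, DESeq2 1.42.0, limma 3.58.1 on log2 of the deposited signal plus 1 or 0.1, other sets of samples, a sex index (log2 Xist minus log2 Ddx3y), a block on sample number, and each sample left out.

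The labels do not state that equal numbers share a mouse. Deviations of same-numbered duodenum and ileum samples correlated over 0.1 in every pair at 4 ages (day 0, day 2, week 2 and week 3, 0.129 to 0.547) and in not every pair at days 4 and 8 and week 4. Day 6 had only 2 pairs, whose deviations mirror each other, so their 0.187 is a single value. Ddx3y against Xist matched between regions for 24 of 24 numbers, 15 of them at ages with both sexes.

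The members, lists and tests were chosen with earlier results of these data known. An alternative without the discordant week 4 libraries was chosen after seeing the data. Members and list genes called in the comparison described could be named, with the 3 genes most like each member. Coordinates are from GENCODE M21, and motifs were searched in RefSeq promoter windows.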

Additional observations from a re-analysis of the deposited data

Results flagged for a closer look

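The effect of region differed with age for Trpv6 and Vdr, by the edgeR test of the interaction of region and age (adjusted p = 0.0257 and 5.60e-06). For Trpv6 the log2 difference of ileum minus duodenum was -1.08 at day 0, -5.65 at week 3 and -0.85 at week 4. For Vdr it was 0.52 at day 0, -1.31 at day 6 and -0.46 at week 4. Without the discordant week 4 libraries the adjusted p was 0.00916 and 7.28e-06.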

How the results depend on the processing

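Of 700 alternative values of 84 member results, 639 kept their direction and side of the threshold and 3 changed sign. Of 976 values with a sample left out, 901 kept both and 23 changed sign. No value that changed sign was called, before or after. The averaged regional difference of the 4 members, the week 2 to week 3 step of Atp2b1 and Vdr and the week 4 rise of Trpv6 in ileum kept their calls throughout. The cause of the changes below was not tested.

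The sign changes were these, on the log2 scale. Vdr for week 2 against day 8 in ileum was -0.017 with only those groups in the fit, and between -0.085 and 0.113 with a sample left out. The Vdr difference between regions in the week 3 step was -0.017 with no low-count filter, -0.064 without day 4 and between -0.063 and 0.187 with a sample left out, and that of Atp2b1 lay between -0.283 and 0.147. With a sample left out, S100g lay between -0.254 and 0.176 for day 8 against day 0 in duodenum, between -0.522 and 0.156 in ileum, between -0.363 and 0.314 for week 2 against day 8 in ileum, and between -1.135 and 0.826 for week 4 against week 3 in ileum. Between regions it lay between -0.397 and 0.079 at day 0, -0.666 and 0.011 at day 8 and -2.156 and 0.334 at week 4. Trpv6 lay between -1.79 and 0.039 between regions at day 0 and between -0.0054 and 0.826 for week 2 against day 8 in ileum, and Atp2b1 between -0.030 and 0.150 in the latter.

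The number of members called moved as follows. In duodenum, the 3 called for day 8 against day 0 became 1 with no low-count filter, with the day 6 samples numbered 3 kept or with the sex index, and lay between 1 and 3 with a sample left out. The 4 of week 3 against week 2 became 2 with no filter, and 2 to 4 with a sample left out. Of these 4, Trpv6 alone was lost with the day 6 samples numbered 3 kept, in DESeq2 and with the replicate block. The 0 of week 2 against day 8 became 2 with only those groups in the fit. For week 4 against week 3, the 0 in duodenum became 1 without day 4, and 0 to 2 with a sample left out, and the 1 in ileum became 2 without day 4 and in DESeq2. Between regions, the 0 at day 0 became 1 with RLE scaling, with the replicate block and with only those groups, 2 without day 4 and in DESeq2, and 0 to 1 with a sample left out. The 1 at day 2 became 0 with no filter or day 6 kept, 3 without day 4, with only those groups and in DESeq2, and 0 to 1 with a sample left out. The 3 at day 4 became 1 with day 6 kept and with only those groups, and 1 to 3 with a sample left out. The 3 at day 6 became 0 with day 6 kept, and 1 to 2 with a sample left out. The 2 at week 2 became 1 with day 6 kept and 4 with only those groups. The 1 at week 4 became 0 with day 6 kept and with only those groups, 2 without day 4 and in DESeq2, and 0 to 2 with a sample left out. The 2 interaction calls became 1 with no filter and with day 6 kept, and 1 to 2 with a sample left out.

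Across all ages, deviations of same-numbered samples of the 2 regions correlated between -0.363 and 0.672 (mean 0.155), over 0.1 in 16 of 23 pairs. These correlations were not uniform, and they do not settle whether equal numbers share a mouse. Numbers of different ages share no pairing in the labels. The replicate block lost Atp2b1 for day 8 against day 0 (adjusted p = 0.0511) and at day 4 between regions (0.0573), and Trpv6 for week 3 against week 2 in duodenum (0.0617), and added Vdr between regions at day 0 (0.0484). It changed no other call of a member.

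Counts of all genes called moved by over 1.5 times in several comparisons. For week 2 against day 8 they went from 3448 to between 1528 and 6278 in duodenum and from 1460 to between 417 and 3472 in ileum. For week 4 against week 3 they went from 2794 to between 1828 and 4568 in duodenum and from 3534 to 1527 in ileum. Between regions, 1342 at day 0 went to between 578 and 2419, 1762 at day 2 to between 1024 and 5408, 5855 at day 4 to 354, 7762 at day 6 to 0, 4922 at week 2 to between 2561 and 7426, 3117 at week 3 to between 1376 and 5585 and 6234 at week 4 to 2491. The 4930 interaction calls went to between 947 and 9512, and the 303 of the difference in the week 3 step to between 113 and 672. With a sample left out, the lowest count was 60, for week 2 against day 8 in ileum without day 8 number 1. Few reads limited Cyp24a1 and ileal Trpv6.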

Other observations

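For Trpv6, S100g and Vdr, the libraries of day 6 left out of the tests sat with the region opposite to their label. The library labelled duodenum number 3 held 0.287 CPM of Trpv6, 36.6 CPM of S100g, 287 CPM of Atp2b1 and 47.4 CPM of Vdr. The library labelled ileum number 3 held 3.92 CPM of Trpv6, 121 CPM of S100g, 224 CPM of Atp2b1 and 109 CPM of Vdr. For Trpv6, S100g and Vdr the 2 day 6 duodenum samples used held 3.07 and 4.39, 96.2 and 162, and 117 and 112 CPM. The 2 day 6 ileum samples used held 0.0647 and 0.174, 40.7 and 44.6, and 40.6 and 52.1 CPM. For Atp2b1 the duodenum samples held 204 and 220 CPM and the ileum samples held 330.5 and 347 CPM. The 287 CPM of the library labelled duodenum lay between these.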
